A study of Mus musculus with 4 samples.

Results

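The genes described here are the copies of small nuclear RNA (snRNA) genes that carry no name of an established snRNA. They were taken as every gene of biotype snRNA in a RefSeq gene table of the mouse genome build GRCm38.p6 whose symbol does not begin with Rnu. The rule gave 989 of 1004 snRNA genes, in a table of 49997 genes. Of these copies 909 have provisional Gm symbols, 78 have LOC symbols and 2 have other names, Rn7sk (332 bp) and Snord73b (71 bp). The entries of 7 copies could not be placed on the assembled chromosomes, which left 982 copies. Each was given a window of 1 kb on each side of the gene, and a window was called marked by a library when a peak of that library overlapped it by at least 1 bp.

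The study profiled haematopoietic stem cells of mouse bone marrow, from animals wild type for Ppp2ca, in 4 CUT&Tag libraries. CUT&Tag tethers a transposase to an antibody on chromatin, so that sequencing adapters are inserted close to the protein the antibody binds. In 2 libraries the antibody was against PPP2CA, a catalytic subunit of protein phosphatase 2A, and in the other 2 libraries it was IgG, the control for cutting without a specific target. All 4 titles carry the letters CST, which the labels do not explain, and no source used here gives the age or sex of the animals. Whether the libraries of a group stem from different animals is not stated, so their spread may be technical. The lists hold peaks and no expression values, so the cell type could not be checked against its marker genes.

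The snRNAs are short, abundant nuclear RNAs, and most of them form the core of the spliceosome, the machine that removes introns. Their genes are transcribed by RNA polymerase II or, as for U6 and 7SK, by RNA polymerase III, from promoters that share a proximal sequence element. A distal element with an octamer is common in both kinds, and a TATA box sets apart the promoters read by polymerase III. The Integrator complex cleaves the ends of polymerase II snRNA transcripts, and a form of protein phosphatase 2A is known to associate with it. Mammalian genomes also hold many dispersed copies of snRNA sequences, a large share of which are regarded as pseudogenes, so a table entry with an snRNA biotype need not be a working gene.

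Sequence next to a copy could be shown where the promoter of a neighbouring gene falls inside the window. The RefSeq promoter table holds 300 bases for each of 32851 promoter entries of GRCm38.p6, from 250 bases before to 50 bases after the start, and no copy has an entry of its own. A neighbour's promoter lay in a copy's window in 27 pairs of copy and promoter, 15 of them at copies marked in both PPP2CA libraries. These 15 pairs hold 15 different promoter entries, with a separate entry of Gm35239 for each of the 2 copies beside it. The octamer ATTTGCAT was found on either strand in 3 of these 15 pairs and in 0 of the other 12, against 1.74% of all promoters. The proximal element core, written as ACC, 5 bases of any kind, T, 2 bases of any kind and AA, was found in 3 of 15 and in 2 of 12 (10.1% of all promoters), and TATAAA in 2 of 15 and in 1 of 12 (13.6% of all promoters). A match is a description of letters and not of binding. The 3 promoters with an octamer follow, each written towards the copy that it lies beside, with the octamer in capitals in all 3 and the proximal core and TATA box also in capitals in the first. In the second the octamer is on the other strand and reads ATGCAAAT, and a proximal core on the other strand is left in lower case. The last sequence is a copy itself, LOC115489800, which had no peak in any library and lies inside the promoter window of the long noncoding RNA gene Gm26232; its capitals mark the 9 bases at positions 3 to 11, those with which U1 RNA pairs to the 5′ splice site.
Gm24019 side, Med16 promoter, chr10:79908889-79909188, plus strand: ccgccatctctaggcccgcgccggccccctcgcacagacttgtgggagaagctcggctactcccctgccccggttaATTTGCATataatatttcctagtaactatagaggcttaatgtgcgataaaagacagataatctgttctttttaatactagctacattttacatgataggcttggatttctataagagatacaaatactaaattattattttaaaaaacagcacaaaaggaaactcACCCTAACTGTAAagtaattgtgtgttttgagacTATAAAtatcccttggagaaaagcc
Gm24497 side, D230017M19Rik promoter, chr1:72243743-72244042, plus strand: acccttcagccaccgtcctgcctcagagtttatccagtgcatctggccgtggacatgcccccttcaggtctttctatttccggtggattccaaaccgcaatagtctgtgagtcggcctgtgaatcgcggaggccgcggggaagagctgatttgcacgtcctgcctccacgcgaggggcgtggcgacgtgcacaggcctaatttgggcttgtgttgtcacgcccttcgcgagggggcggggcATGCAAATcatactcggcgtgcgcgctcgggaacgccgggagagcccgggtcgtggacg
LOC115487699 side, Alyref2 promoter, chr1:171503228-171503527, minus strand: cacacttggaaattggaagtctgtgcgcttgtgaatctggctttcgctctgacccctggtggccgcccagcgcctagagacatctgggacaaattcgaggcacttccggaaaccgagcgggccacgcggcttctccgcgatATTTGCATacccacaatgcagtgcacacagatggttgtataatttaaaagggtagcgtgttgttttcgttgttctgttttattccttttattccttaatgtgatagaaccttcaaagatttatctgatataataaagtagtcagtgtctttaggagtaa
LOC115489800, whole copy, chr3:96450446-96450611, plus strand: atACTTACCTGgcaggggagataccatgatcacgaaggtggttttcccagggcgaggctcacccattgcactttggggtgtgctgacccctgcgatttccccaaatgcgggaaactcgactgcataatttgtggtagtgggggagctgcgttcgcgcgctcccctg
Beside Gm24019, a copy of 107 bp, the octamer stands 230 to 223 bp before the copy, the proximal core 65 to 53 bp and the TATA box 31 to 26 bp. The octamers beside Gm24497 and LOC115487699 stand 229 to 222 bp and 223 to 216 bp before the copy, so the 3 octamers lie at nearly the same distance. Med16 encodes a subunit of Mediator, and Alyref2 is related to the mRNA export factor Alyref. The strand of Gm24019, Gm24497 and LOC115487699 is not given in the gene table, so it was not checked that these copies are read away from the motifs.

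The peak lists hold 16811 and 17686 peaks in PPP2CA 1 and PPP2CA 2, and 561 and 310 peaks in IgG 1 and IgG 2. The number of fragments at each summit was recovered as a whole number from the deposited fold and p of every peak. The median summit held 18 fragments in both PPP2CA libraries and 4 in both IgG libraries. The lowest background of a list, a measure of its depth, was 0.784 and 0.80 fragments for PPP2CA and 0.0839 and 0.0833 for IgG, between 9.34 and 9.61 times higher in PPP2CA. The IgG libraries were therefore shallow, and a place without an IgG peak may have been below what they could detect. With 2 libraries against 2, the smallest p of an exact two-sided permutation is 1 in 3, so no test was made between the antibodies and the values are given as descriptions.

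Few of the copies were marked. PPP2CA 1 had a peak in 54 of the 982 windows (5.50%) and PPP2CA 2 in 56 (5.70%), beside 9.04% and 9.36% of the windows of other genes that are no longer than the longest copy. Both libraries marked 48 of the copies (4.89%, beside 8.01% of the other short genes; exact 95% interval 3.63 to 6.43%, which like every interval given here covers counting error only). Of the windows marked in PPP2CA 1, 88.9% were also marked in PPP2CA 2, and of those marked in PPP2CA 2, 85.7% were also marked in PPP2CA 1. IgG 1 and IgG 2 had a peak in 8 windows each, 11 windows had a peak in either (1.12%) and 5 in both. No peak of any library lay in 919 windows.

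Set beside other short genes, the share of copies marked in both PPP2CA libraries depended on which genes were taken. Of the copies 4.89% were marked, against 8.01% of the 4357 other genes that are no longer than the longest copy. tRNA genes made up 138 of the 349 marked genes among these, and without them 211 of 3954 were marked (5.34%), a share inside the interval of the copies; this split was made after the values were seen. The share was 47.1% of 21775 protein-coding genes, which are longer and so have wider windows, and 1.35% of 2107-bp windows laid end to end along the chromosomes. With IgG the order was different, at 1.12% of the copies, 0.161% of the other short genes, 2.08% of protein-coding genes and 0.0770% of the equal windows. Among short genes of other kinds, 5.34% of snoRNA genes, 8.71% of miRNA genes, 34.2% of the 403 tRNA genes and 0.946% of pseudogenes were marked in both PPP2CA libraries. In windows that hold a protein-coding gene, 18 of 369 copies (4.88%) were marked against 192 of 1756 other short genes (10.9%). In windows without one, 30 of 613 copies (4.89%) were marked against 157 of 2601 other short genes (6.04%).

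The marked copies were unevenly spread over gene length, which stands in here for kinship because the copies carry no family name. The length classes were drawn after the values were seen. Of the 197 copies longer than 112 bp, 30 were marked in both PPP2CA libraries (15.2%, 10.5 to 21.0%), and of the 785 copies of up to 112 bp, 18 were (2.29%, 1.36 to 3.60%). These intervals treat the copies as independent, although some copies share a peak. As the classes were drawn after the values were seen, the intervals do not test the difference. Peaks of either IgG library lay at 8 of the longer copies (4.06%) and at 3 of the shorter ones (0.382%). In windows without a protein-coding gene, the shares marked in both PPP2CA libraries were 18.5% of 124 longer copies and 1.43% of 489 shorter copies. Where the window held one, they were 9.59% of 73 longer copies and 3.72% of 296 shorter copies.

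2 exact lengths stood out. Of the 13 copies of 191 bp, 10 were marked in both PPP2CA libraries (76.9%, 46.2 to 95.0%), and of the 8 copies of 116 bp, 6 were (75.0%, 34.9 to 96.8%). The copies of 191 bp without a peak were Gm25813, Gm25202 and Gm26108, and those of 116 bp were Gm24043 and Gm23102, named here after their values were seen. A length of 164 bp had 7 of 33 copies marked (21.2%) and 165 bp had 2 of 10. The commonest length, 107 bp, had 10 of 382 marked (2.62%), and none of the 73 copies of 59 to 79 bp was marked in both PPP2CA libraries, which allows a share of up to 4.93% at the upper 95% limit. For comparison of size, Rnu5g is 116 bp long, Rnu1a1 164 bp, Rnu2-10 187 bp and Rnu6 107 bp, so the 191-bp copies match no Rnu-named gene exactly. A shared length alone does not assign a copy to a family.

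**Figure D1:**
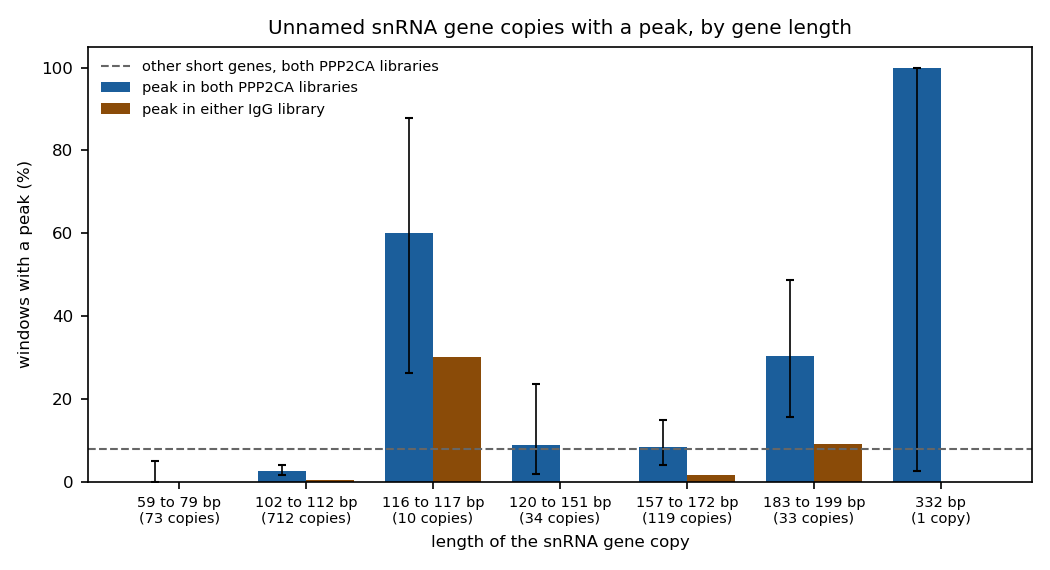
Share of snRNA gene copies (percent, y axis) with a peak in both PPP2CA libraries and in either IgG library, by class of gene length (bp, x axis); coloured bars are shares, thin lines exact 95% intervals and the dashed line the 8.01% of other short genes with a peak in both PPP2CA libraries. The share with PPP2CA is 0 for copies of 59 to 79 bp, 2.53% for 102 to 112 bp, 60% for 116 to 117 bp and 30.3% for 183 to 199 bp.

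Where copies were marked, many of the peaks were among the tallest of their lists. At the 48 copies the best peak held 10 to 2010 fragments at its summit in PPP2CA 1 (median 68) and 11 to 2258 in PPP2CA 2 (median 81.5), beside a median of 18 for all peaks of either list. Ranked by −log10 q within each list, 13 of the 48 copies stood among the best 100 peaks of both libraries and 9 among the best 30. The fold over local background, the authors' own value, had a median of 7.11 in PPP2CA 1 and 7.76 in PPP2CA 2, beside 5.61 and 5.53 for all peaks. The peaks were also broad, with a median width of 1221 bp in PPP2CA 1 and 1315.5 bp in PPP2CA 2, beside 666 and 692 bp for all peaks. These comparisons are not like for like. The 48 copies had to be marked in both libraries and only the best peak was taken, while all peaks include those found in 1 library. That choice favours higher fragments, fold and width, and the best peaks at other marked short genes are not given here. Gm24265 and Gm24407 share their best peak in each PPP2CA library, as do Gm23296 and LOC115488100. The shared peak of Gm24265 and Gm24407 is counted for each of them among the best 100 and the best 30. With second peaks included, the 48 windows hold 46 different peaks in PPP2CA 1 and 48 in PPP2CA 2.

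At the marked copies the peaks of the 2 PPP2CA libraries lay close together, which the choice of these copies favours. A copy was included only if both libraries had a peak in its window, and many of these peaks are broad. Overlap and summit distance at other genes are not given here. The best peaks of the 2 libraries overlapped at 47 of the 48 copies. Their summits were a median of 43.5 bp apart, within 100 bp of each other at 32 copies and on the same base at 8. Summit fragments in PPP2CA 2, not scaled for depth, were a median of 1.19 times those in PPP2CA 1 (0.769 to 2.21 times), higher at 44 copies, lower at 3 and equal at 1. The exception in place was Gm22634, chosen after its values were seen, where the best summits held 33 fragments in PPP2CA 1 and 73 in PPP2CA 2 and lay 1559 bp apart. Its second PPP2CA 2 peak overlapped the peak of PPP2CA 1.

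The copy with the highest summit was Gm25313, 116 bp long at chr9:65196572-65196687 and inside the long noncoding RNA gene Gm40527. Its summit held 2010 fragments in PPP2CA 1 and 2258 in PPP2CA 2, against 28 in IgG 1 and 15 in IgG 2. Fragments are given here and below as counted, without scaling for depth; divided by each list's lowest background, PPP2CA exceeded IgG here by 7.69 to 15.7 times. The fold was 7.10 in both PPP2CA libraries, the −log10 q 959 and 1078, and the rank 5 and 4 of all peaks. Both summits lay on the side of lower coordinates, 558 and 650 bp from the copy, and nearer to it than to any protein-coding or long noncoding gene boundary (2782 and 2690 bp). Rnu5g, the U5 gene of the same length, lies nearby inside the same noncoding gene and was also marked in both PPP2CA libraries, with 1117 and 1210 fragments.

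Among the copies of 116 bp, LOC115487699 at chr1:171503048-171503163 came next, 315 bp from Alyref2. Its summit held 1097 fragments in PPP2CA 1 and 1214 in PPP2CA 2, against 14 in IgG 1 and 10 in IgG 2, and lay 585 bp on the low side in both PPP2CA libraries, on the side of the copy away from Alyref2. Gm25099 had 540 and 650 fragments in PPP2CA 1 and 2 against 14 in IgG 1 and no peak in IgG 2. No IgG peak lay at Gm22265, inside Hhat, an acyltransferase gene, where the PPP2CA summits held 284 and 342 fragments. The last of the 116-bp copies, Gm23143 and Gm23287, held 219 and 252, and 96 and 137 fragments, also without an IgG peak. All 6 copies had more fragments in PPP2CA 2 than in PPP2CA 1, without scaling for depth.

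The copies of 191 bp covered a similar range, and 3 of the 10 had an IgG peak. Gm24950 held 844 and 1012 fragments in PPP2CA 1 and 2 (IgG 1, 17), Gm23971 722 and 856 (no IgG peak) and Gm23444 670 and 815 (IgG 2, 10). Gm25939 held 375 and 403, and 8 and 6 fragments in IgG 1 and IgG 2. None of these 4 has a protein-coding gene within 1 kb, and the window of Gm25939 overlaps the long noncoding gene D230017M19Rik. No IgG peak lay at the other 6 copies. LOC115487916, inside the DNA repair gene Rdm1, held 360 and 413 fragments, Gm24497 270 and 334, and Gm25360 177 and 236. Gm22973, Gm26316 and Gm23472 were lower, at 57 and 59, 52 and 58, and 46 and 58 fragments.

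Among the copies of 164 and 165 bp, 2 were far above the rest. Gm22068, inside the germ cell gene Tex14, had 1352 and 1612 fragments in PPP2CA 1 and 2 against 18 in IgG 1 and no peak in IgG 2. Its fold was lower than that of the other tall peaks, at 4.08 and 4.10, which places it over a higher local background. Gm22513 at chr12:54696782-54696945, 883 bp from Eapp, a gene for a protein that binds E2F factors, had 1283 and 1527 fragments against 20 and 17 in IgG 1 and IgG 2, with ranks 7 and 6. Its summits lay 573 bp from the copy in both PPP2CA libraries, and the nearest other gene boundary was 1619 bp from them. The next were Gm22614 with 217 and 228 fragments and Gm25890 with 147 and 157, both of 165 bp. LOC115488077 had 66 and 90 fragments and LOC115488065 64 and 72, and the summits of both libraries lay inside these copies. LOC115488077 had the highest fold of the 48 copies in each PPP2CA library, 11.8 and 13.1.

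Other lengths over 112 bp gave single places. Gm24265 and Gm24407, 2 copies of 141 bp within 0.936 kb of each other, share a peak of 899 fragments in PPP2CA 1 and 1100 in PPP2CA 2. The peak had ranks 22 and 16, and no IgG peak lay there. Both copies overlap Sirt4, a mitochondrial sirtuin gene, but Gm24407 lies across its end and only in part within it. The summit of the shared peak lay 41 and 166 bp from a Sirt4 boundary, the nearest of a protein-coding or long noncoding gene. It lay 31 and 156 bp from Gm24407. Rn7sk, the gene of 7SK RNA, which holds the elongation factor P-TEFb inactive, had 46 fragments in PPP2CA 1 and 55 in PPP2CA 2, folds of 9.13 and 10.4 and ranks 2454 and 1915. It had no IgG peak, and its summits lay 211 and 284 bp from the gene but 70 and 3 bp from a boundary of the long noncoding gene C920006O11Rik. The other marked copies over 112 bp were Gm25541 of 126 bp, with 43 and 60 fragments, and Gm23405 of 159 bp, with 12 and 19, neither with an IgG peak.

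**Figure D2:**
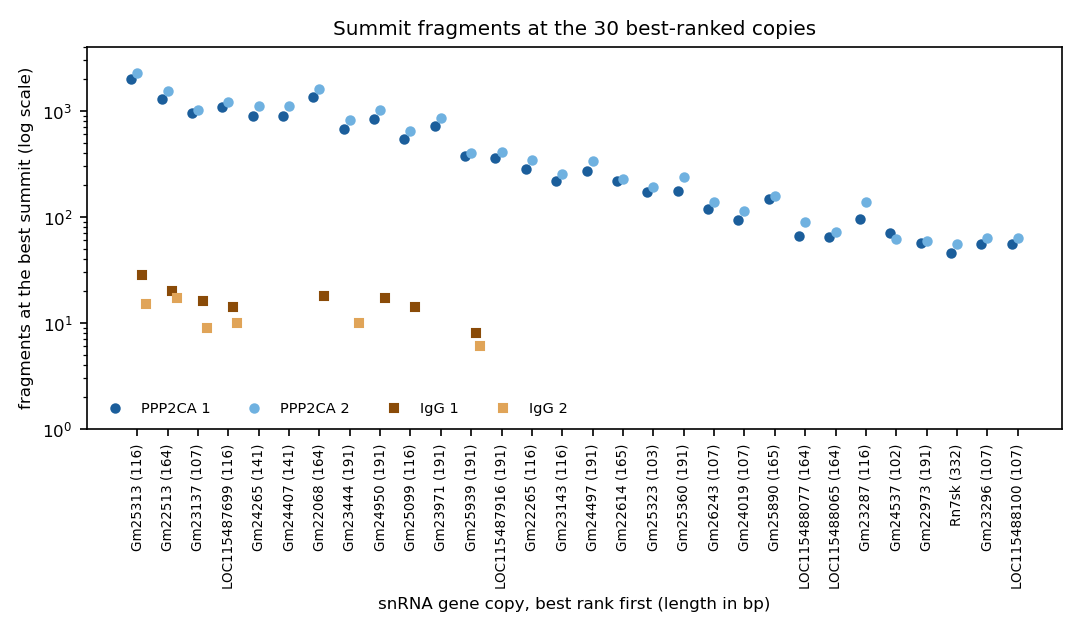
Fragments at the best summit (log scale, y axis) at the 30 best-ranked snRNA gene copies (x axis, with length in bp), as circles for the PPP2CA libraries and squares for the IgG libraries. PPP2CA values run from 2010 and 2258 at Gm25313 at the high end to 46 and 55 at Rn7sk at the low end, and IgG values, where there is a peak, from 28 to 6.

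The 18 shorter copies that were marked had lower summits, and most of their PPP2CA 1 and PPP2CA 2 summits (10 and 13 of 18) lay within 500 bp of the boundary of a protein-coding or long noncoding gene. The median summit at the 30 longer copies held 218 fragments in PPP2CA 1 and 244 in PPP2CA 2, against 37 and 50 at the 18 shorter ones. The tallest, Gm23137 of 107 bp, shares its peak of 946 and 1028 fragments with Rnu3b1, and the peak does not reach the copy itself. Gm25323 (103 bp), within Thrap3, which encodes a factor of mRNA processing, held 173 and 193 fragments. The summit lay 1190 bp from the copy, 288 bp from a boundary of Thrap3 and 243 bp from a RefSeq promoter start of Thrap3. Gm26243 held 119 and 139 fragments, Gm24019, between Med16 and R3hdm4, 94 and 114, and Gm24537 70 and 62. Gm23296 and LOC115488100 share a peak of 55 and 63 fragments near the long noncoding gene Gm35239. The 11 other shorter copies held 10 to 46 fragments in PPP2CA 1 and 11 to 53 in PPP2CA 2.

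Position set the longer copies apart from the shorter ones. At the longer copies the best summit was nearer to the copy than to any boundary of a protein-coding or long noncoding gene in 27 of 30 cases in PPP2CA 1 and 28 of 30 in PPP2CA 2, and at the shorter copies in 7 and 5 of 18. Boundaries are the outer ends of genes, so other starts of a gene were not counted. Gm23851, named after its values were seen, counted as nearer to the copy, with summits 975 and 1045 bp away. Those summits lay 96 and 80 bp from a RefSeq promoter start of Cops7a. The median distance between summit and copy was 395.5 and 393 bp for the longer copies and 830 and 807.5 bp for the shorter ones. Median distances to the nearest other boundary were 4688 and 4731.5 bp for the longer copies and 268 and 235.5 bp for the shorter ones. The peak touched the copy at 24 of 30 longer copies in each PPP2CA library, and at 3 and 2 of 18 shorter copies. It covered the whole copy at 17 and 21 longer copies and at 3 and 2 shorter copies. Summits inside the copy itself were few, 4 and 3 of the longer copies and none of the shorter ones, so most summits stood to one side of the copy. Since a summit may lie up to and beyond the edge of the window, these distances depend on the window, and the length classes were again drawn after the values were seen.

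**Figure D3:**
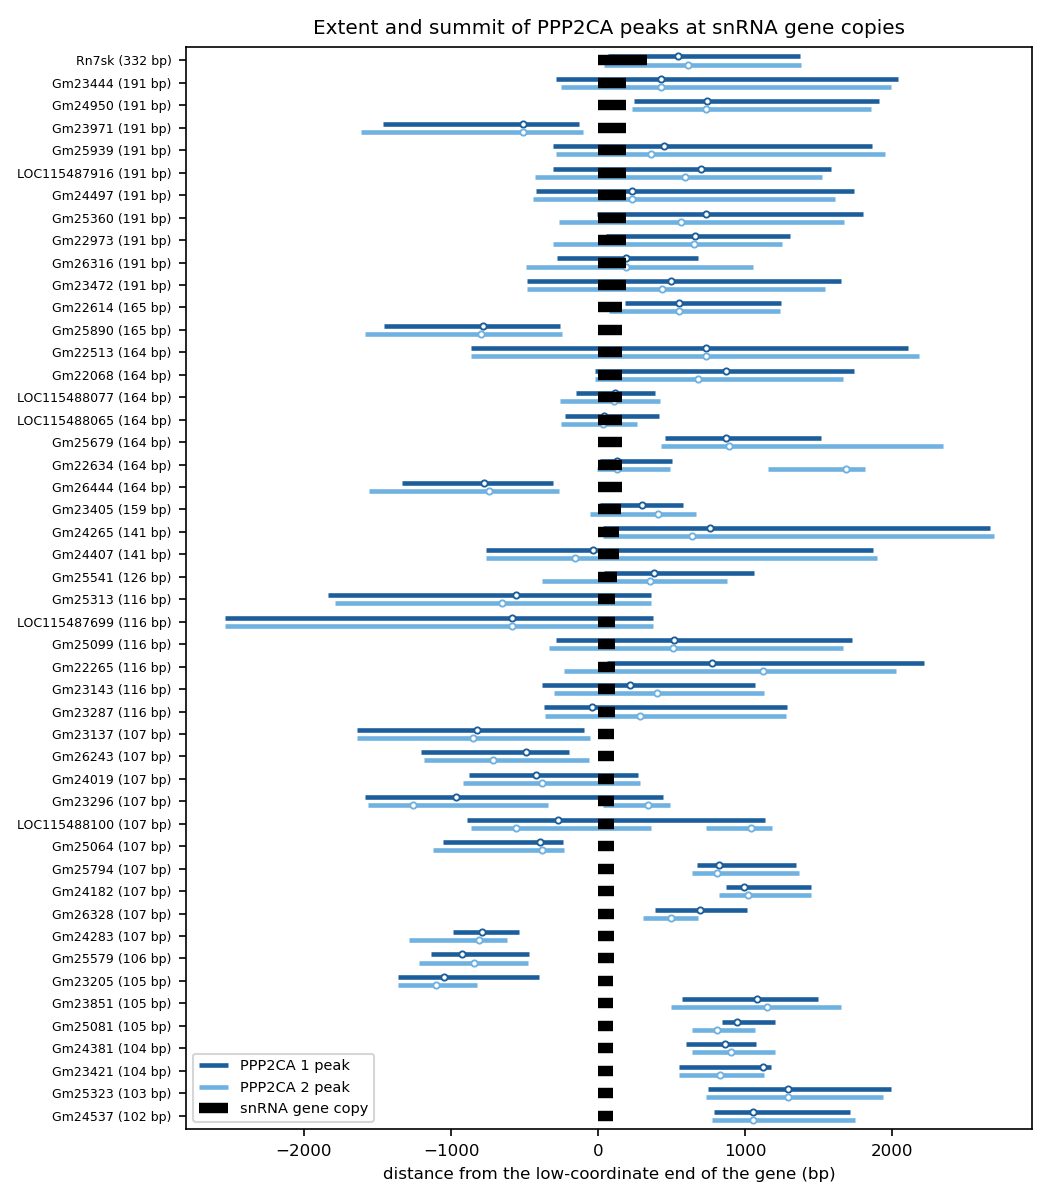
Extent of every peak of each PPP2CA library in the windows of the 48 copies marked in both (x axis, distance from the low-coordinate end of the copy in bp, 1 row per copy, longest first), with the summit of each peak as an open circle. At Gm25313 the summits lie 558 and 650 bp on the low side, and at LOC115488077 they lie inside the copy.

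**Figure D4:**
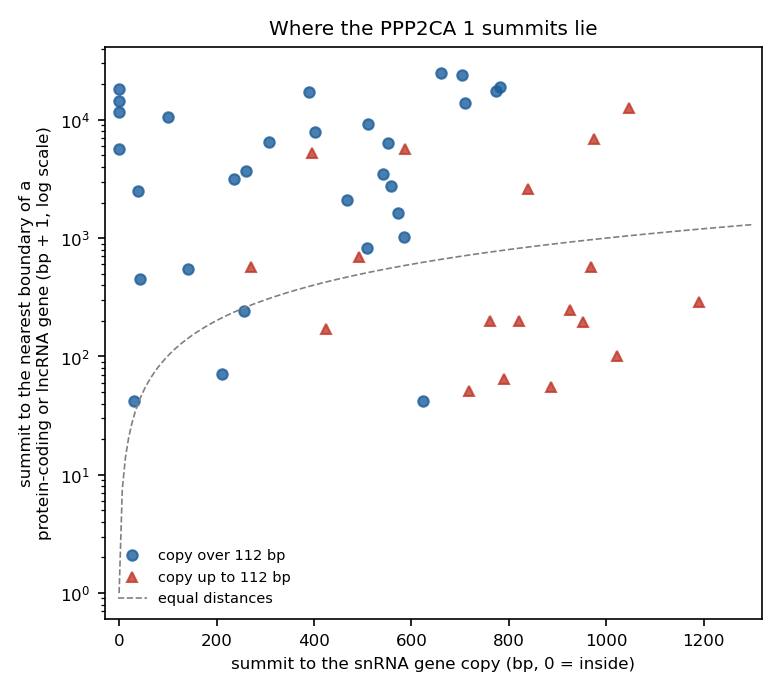
Distance of the best PPP2CA 1 summit from the copy (x axis, bp) and from the nearest boundary of a protein-coding or long noncoding gene (y axis, bp + 1, log scale), for copies longer than 112 bp (circles) and of up to 112 bp (triangles); the dashed line marks equal distances. Of the longer copies 27 of 30 lie above the line, and of the shorter ones 7 of 18.

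Many of the marked copies lie in groups. Copies and Rnu-named genes no more than 50 kb apart were linked, which gave 32 clusters of 2 or more copies with 82 copies in all and left 900 copies alone. Of the 48 marked copies, 26 were in 9 of these clusters, and 25 of them in 8 clusters with 2 or more marked copies. On chromosome 12, 6 of 7 copies of 164 bp within 41.8 kb were marked in both PPP2CA libraries, and of the 26 copies of that length elsewhere 1 was. The fragments fell unevenly, with 1283 and 1527 at Gm22513 and between 26 and 66 in PPP2CA 1 and between 39 and 90 in PPP2CA 2 at the other 5, while Gm22317 had no peak. On chromosome 1, 4 of 4 copies of 191 bp within 29.0 kb were marked, from Gm23472 with 46 and 58 fragments to Gm25939 with 375 and 403. On chromosome 11, 4 of 4 copies of 191 bp were marked next to Rnu2-10, the tallest snRNA gene in the table by −log10 q, with 1831 and 2223 fragments against 28 and 17 in IgG 1 and IgG 2. These 2 clusters hold 8 of the 10 marked copies of 191 bp, and outside them 2 of 5 were marked. On chromosome 4, 3 of 3 copies of 116 bp within 21.0 kb were marked.

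Nearness to other copies did not go with a peak everywhere. On chromosome 3, a stretch of 160 kb holds 5 copies of 165 and 166 bp with Rnu1b1, Rnu1b2 and Rnu1b6. Gm25890 and Gm22614 were marked in both PPP2CA libraries, Gm24830 in PPP2CA 1 alone with 12 fragments, and Gm24136, LOC115489800 and the 3 Rnu-named genes in none. LOC115489800, whose sequence is printed above with intact U1 pairing bases, was thus unmarked while Gm22614 in the same cluster had 217 and 228 fragments. A cluster of 4 copies of 103 and 107 bp on chromosome 4, over 70.7 kb, had no peak in any of the 4. On chromosome 11, within Tex14, Gm22068 and Gm23137 lie among Rnu1a1 and Rnu3b1 to Rnu3b4, and all 5 Rnu-named genes there were marked. No source used here states how reads that match several near-identical copies were placed, so the values of single copies in a cluster are uncertain, and a missing peak may mean that reads were not assigned to that copy.

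**Figure D5:**
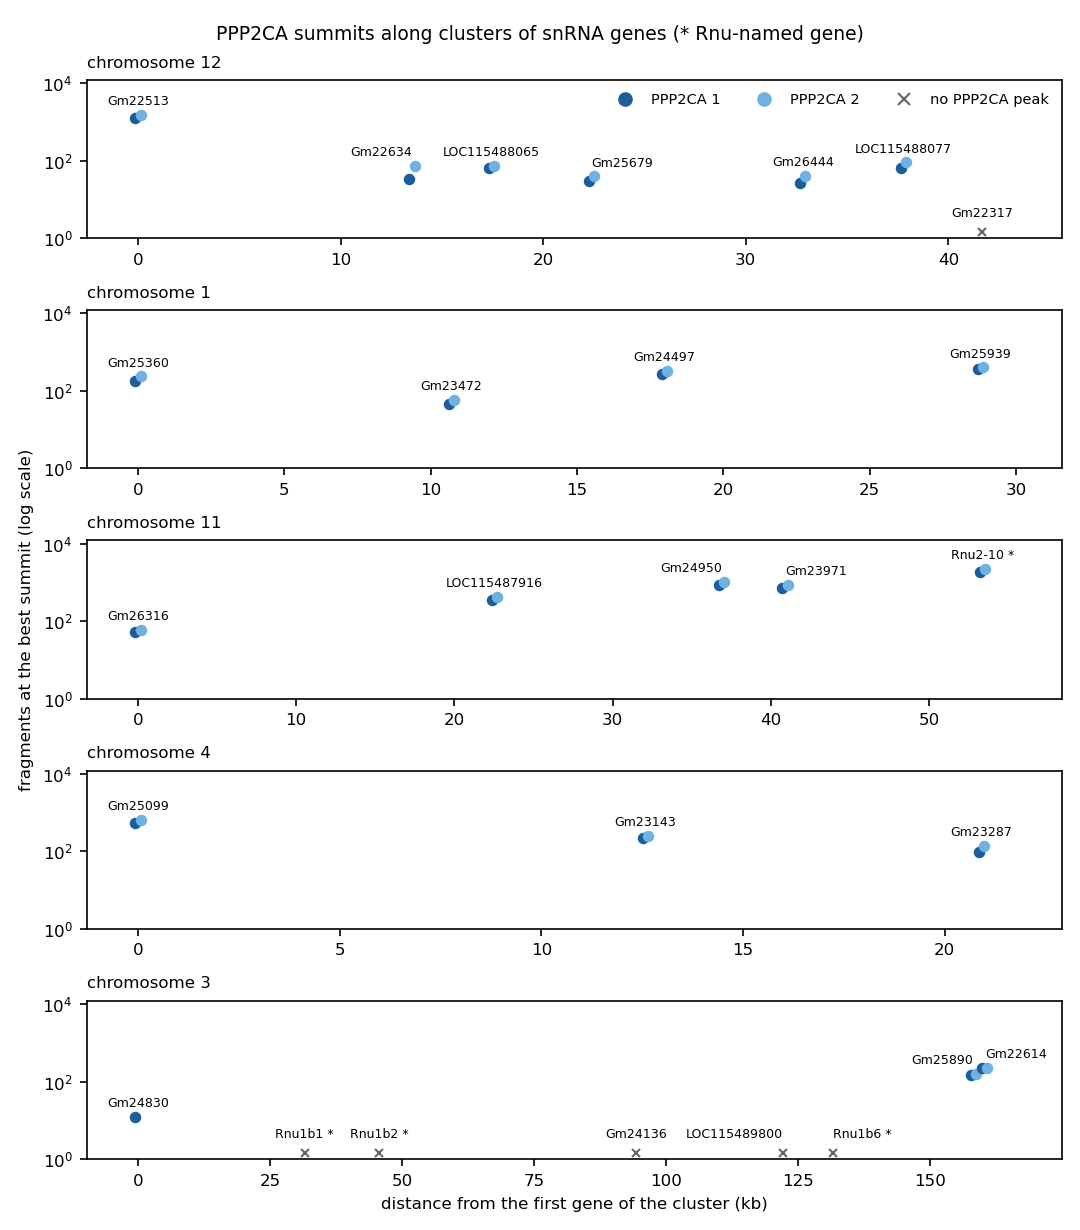
Fragments at the best PPP2CA summit (log scale, y axis) for each snRNA gene along 5 clusters (x axis, distance from the first gene in kb); crosses mark genes with no PPP2CA peak and asterisks Rnu-named genes. All 4 copies on chromosome 1 and all 4 on chromosome 11 are marked, against 2 of 5 on chromosome 3 in both libraries.

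The unnamed copies were marked less often than the Rnu-named genes, measured in the same way. Both PPP2CA libraries marked 4.89% of the unnamed copies, against 11 of 15 Rnu-named genes (73.3%, 44.9 to 92.2%). An IgG peak lay at 1.12% of the unnamed copies, against 10 of the 15 Rnu-named genes (66.7%). The 4 Rnu-named genes not marked were Rnu1b1, Rnu1b2, Rnu1b6 and Rnu6. The 2 sets differ in make-up, since 712 of the 982 copies are 102 to 112 bp long. Of the Rnu-named genes only Rnu6 and Rnu11, which was marked, have such a length. The unnamed copies longer than 112 bp, with 15.2%, also lay below the interval of the Rnu-named genes. The lengths of 191 and 116 bp were singled out for their many marked copies, so their shares are not set against the Rnu-named genes. Besides Rnu2-10, the best Rnu-named genes were Rnu3b4 with 983 and 1131 fragments, Rnu3b1 with 946 and 1028, Rnu3b3 with 965 and 1153, and Rnu3b2 with 894 and 956, which encode the U3 RNA that guides processing of ribosomal RNA. The tallest unnamed copy, Gm25313, was higher in fragments than any of these 4 and lay between Rnu2-10 and Rnu3b4 in rank.

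IgG signal coincided with the tallest PPP2CA peaks. Of the 13 copies among the best 100 peaks of both PPP2CA libraries 9 had an IgG peak, and of the other 35 marked copies 1 had. Of the 349 other short genes marked in both PPP2CA libraries, 345 had no IgG peak. Of the 48 marked copies, 10 had an IgG peak (20.8%) and 38 had none (3.87% of all copies, beside 7.92% of all other short genes). Those with IgG peaks were Gm25313, Gm22513, Gm23137, LOC115487699, Gm22068, Gm23444, Gm24950, Gm25099, Gm25939 and Gm25064. Divided by the lowest background of each list, the PPP2CA summit was 4.13 to 15.7 times the IgG summit at 9 of them. At Gm25064, with 31 and 45 fragments in PPP2CA 1 and 2 and 4 in IgG 2, the ratio was 0.824 and 1.17. The deposited fold at these 10 copies, over local background, was 4.08 to 10.2 with PPP2CA and 3.31 to 8.25 with IgG. At Gm22513 the IgG 2 fold, 7.67, was above both PPP2CA folds, 7.17 and 7.10. At Gm24950 the IgG 1 fold, 5.62, lay between 5.82 and 5.54, and at the remaining copies each IgG fold was below both. Their IgG peaks ranked 20 to 266 in IgG 1 and 19 to 169 in IgG 2. The 1 copy with an IgG peak and no PPP2CA peak was Gm24389, within Tnxb, which had 5 fragments in IgG 2. Whether cutting without a specific target had a part in the PPP2CA peaks at these copies was not tested.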

How the data were processed

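CUT&Tag libraries of mouse bone marrow haematopoietic stem cells were used, 2 made with a PPP2CA antibody and 2 with IgG, grouped and numbered by their titles. The authors deposited 1 narrowPeak list per library. Its columns 7 to 9 hold the deposited fold (the ratio of summit to local background within that library), the −log10 p and the −log10 q, and column 10 the summit offset; the deposited score was not used. The tools Trimmomatic, BWA, MACS2, deepTools, HOMER and ChIPseeker appear, per the submitters' processing notes, with neither roles nor settings, as do the genome builds GRCm38 and mm10. From fold and p, read as (fragments + 1) / (background + 1) and as the upper tail of a Poisson count, the whole number of fragments at each summit was computed. The result was whole for 100% of peaks in each list within a relative error of 2e-05. Fold, −log10 p and −log10 q were used within a list, and folds of different lists are only set side by side. Summit fragments of different lists are set side by side as counted, and were scaled by the lowest background of each list only in the PPP2CA to IgG ratios. Read totals of the libraries were not used here, and PCR duplicates make fragments less than independent.

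Windows were 1 kb on each side of a gene in a RefSeq table of GRCm38.p6 without strand, and overlap was at least 1 bp. Entries below 3 Mb that stand outside the order of the assembled chromosomes were left out. Intervals are exact Clopper-Pearson intervals at 95%. The copies, lists and classes were chosen with earlier results of these data known. Named were the 30 best copies by the worse within-library rank of −log10 q, the 10 best with an IgG peak and the 5 best Rnu-named and machinery genes; further copies of the clusters, lengths and small counts were named after their values were seen. Motifs of the copies' own promoters had been planned, and neighbours' promoters took their place. Python 3.11.15, pandas 2.3.3 and scipy 1.17.1 were used, and the recovery was tested on simulated data.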

Additional observations from a re-analysis of the deposited data

How the results depend on the processing

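Of 63 alternative values, 48 stayed within 1.5 times or the interval of the value reported and 15 moved. Only the difference in share to the other short genes has a direction that could reverse, and 0 of its alternatives did. With the gene alone in place of the window, 27 copies were marked in both PPP2CA libraries and 1 by either IgG library, the difference in share to the other short genes was −1.31 percentage points (−3.12 in the report), and 3 copies of up to 112 bp were marked. Without windows near a protein-coding gene (none within 1 kb of the window), 28 of 594 copies were marked in both PPP2CA libraries. This was 4.71%, against 5.23% of the other short genes, a difference of −0.518 points. Of the 28 copies 22 had no IgG peak, and 6 copies were marked by either IgG library. There were fewer windows in this setting, but the share of shorter copies also fell. Marked were 5 of 471 copies of up to 112 bp, beside 18 of 785 in the report. Of the longer copies 23 of 123 were marked, beside 30 of 197. Without tRNA genes among the other short genes the difference was −0.448 points. Copies of up to 112 bp that were marked numbered 10 with 500 bp and 28 with 2 kb on each side, and with 2 kb the difference was −5.02 points. The IgG count fell to 5 with a −log10 q of at least 5 and to 2 with summits of at least 20 fragments. For copies longer than 112 bp no alternative moved the count of 30 by more than 1.5 times (23 to 34). Leaving out 1 library gave 54 to 56 copies marked with PPP2CA, 40 to 46 without IgG, 8 to 8 with IgG, differences of −3.66 to −3.54 points, and 32 to 33 longer and 22 to 23 shorter copies. The alternatives for the length classes and for tRNA genes were added after seeing the data. No paired analysis was possible because the results come from no test between the groups. The depth of the IgG lists limits what they could detect, and near-identical copies limit what a single copy's value means.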

Other observations

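Of 50 listed symbols of genes for snRNA transcription, processing and assembly into ribonucleoproteins, 49 were in the gene table and only the symbol Ars2 was not. Of these 49 genes, 42 had a peak in both PPP2CA libraries within the gene or 1 kb of it (85.7%, beside 47.1% of all protein-coding genes). None of the 49 had a peak in either IgG library, beside 2.08% of all protein-coding genes. The best were Zfp143, a factor that binds snRNA promoters, with 248 and 277 summit fragments in PPP2CA 1 and 2, Mepce, the capping enzyme of 7SK RNA, with 215 and 238, and Gemin6, of the SMN complex that assembles snRNPs, with 172 and 205. Hexim1, which acts with 7SK RNA on P-TEFb, had 193 and 200, and Ell, of an elongation complex at snRNA genes, 186 and 184.

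A peak in a single PPP2CA library lay at 14 more copies, 6 in PPP2CA 1 and 8 in PPP2CA 2.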
